A study of Mus musculus with 30 samples.

Results

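miR-146a and miR-146b are the mouse paralogues of the miR-146 family. Their rows, mmu-miR-146a and mmu-miR-146b, were taken by name from a deposited table of 626 probes, of which 566 report mouse miRNAs, so the account below concerns 2 of 566 miRNA probes, followed through all 30 samples and 8 groups. The samples come from male C57BL6 mice, an inbred laboratory strain. Abdominal aorta (AA) and mesenteric adipose tissue (MAT, the visceral fat depot of the gut) were profiled after a high-fat diet with 60% fat (HFD) and on normal chow (NCD), given between 4 and 20 weeks of age, with 3 aorta and 5 fat samples per diet. Exosomes, small vesicles released by cells (MAT-Ad-EX, 3 samples per treatment), and their source, adipocytes differentiated in culture from pre-adipocytes of the mesenteric stromal fraction (MAT-Ad, 4 samples per treatment), were collected after 24 h with 1 µg/ml lipopolysaccharide (LPS, a part of the bacterial envelope that activates Toll-like receptor signalling) or with PBS. The labels describe all cells and exosomes as derived from chow-fed mice.

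As models the groups have limits. Whole fat and aorta hold many cell types. In such bulk samples fewer cells of a type and less RNA per cell cannot be told apart. The cultured adipocytes descend from stromal cells and were never part of an HFD animal, and the labels do not say whether same-numbered cell and exosome samples share a culture. Nothing in the labels ties replicates to separate animals or separate cultures, and p-values therefore reflect only the scatter among the samples at hand, which may be technical. The sample kinds also carry different description letters, and exosome RNA was purified with a different kit, so sample kind cannot be told apart from letter or, for exosomes, from extraction.

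In mammals the gene of miR-146a is a transcriptional target of NF-kB, the transcription factor that inflammatory receptors switch on. The mature miRNAs repress messenger RNAs of adaptor proteins of that same receptor pathway, Traf6 and Irak1 among them, and the family is therefore known as a negative feedback on innate immune signalling. miR-146a is abundant in immune cells, which also populate visceral fat.

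The mature sequences are shown because the paralogues have the same seed, the stretch that pairs with target messenger RNAs, while their genes lie on different chromosomes. Both names were matched to the RefSeq miRNA table of build GRCm38.p6. The deposited names carry no arm, and names of this older form conventionally mean the 5p strand. Capitals mark the seed, bases 2 to 8 from the 5′ end.
miR-146a-5p: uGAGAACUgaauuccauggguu
miR-146b-5p: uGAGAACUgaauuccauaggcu
The first lies in the gene Mir146 at chr11:43374435-43374456 on the minus strand, and the second in Mir146b at chr19:46342790-46342811 on the plus strand. Both are 22 bases long and match at 20 positions. The differences, with the miR-146a base first and positions counted from the 5′ end, are G18A and U21C, both outside the seed. Of 1738 mature mouse miRNAs in the RefSeq table, 2 have the seed GAGAACU, and these are the 2 paralogues.

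The hairpin precursors are shown because they place the mature strands in their 2 genes, which differ in precursor length. Capitals mark the mature strand.
miR-146a hairpin: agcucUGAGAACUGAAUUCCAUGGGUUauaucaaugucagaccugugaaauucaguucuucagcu
miR-146b hairpin: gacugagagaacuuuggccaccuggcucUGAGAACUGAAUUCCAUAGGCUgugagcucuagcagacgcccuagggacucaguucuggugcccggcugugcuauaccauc
They are 65 and 109 bases long. Whether the 2 probes read each other's miRNA was not tested. The lowest within-sample ratio of miR-146b to miR-146a, each as signal + 1, was 0.00914, in chow fat replicate 1, where miR-146b lay below the detection limit.

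All values are the authors' background-subtracted signals, with a floor of 1 and 1 scaling factor per sample. The detection limit was set here as the mean plus 2 SD of the negative controls, 29.8. Those controls do not carry the scaling factor, while the miRNA values do. The limit was thus 12.4 times the factor in chow aorta replicate 1 and 49.5 times in HFD aorta replicate 2. Counts over the limit, filters and lower bounds rest on this single cutoff. Values near it could change sides with the factor undone. Summed miRNA signal was 1796 to 33349 in exosomes, 70149 to 142968 in cultured cells, 174770 to 287152 in aorta and 270569 to 496704 in fat, and the number of miRNAs over the limit was 7 to 67, 82 to 111, 90 to 116 and 142 to 172 in the same order. Of smooth muscle miRNAs, miR-143 plus miR-145 made up 27.5% to 38.2% of the signal in aorta and 4.67% to 23.9% in fat. The 6 adipocyte miRNAs on the marker list summed to 1.46% to 2.26% of the signal in cultured cells and 3.0% to 4.69% in fat, so they did not set the cultures apart as adipocytes. Endothelial and red blood cell miRNAs were all below the limit in the cultured cells. PBS exosome replicate 1 had a ligation control of 125.77, against 2832 or more in every other sample, and chow aorta replicate 1 had the largest scaling factor, 2.40.

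**Figure D1:**
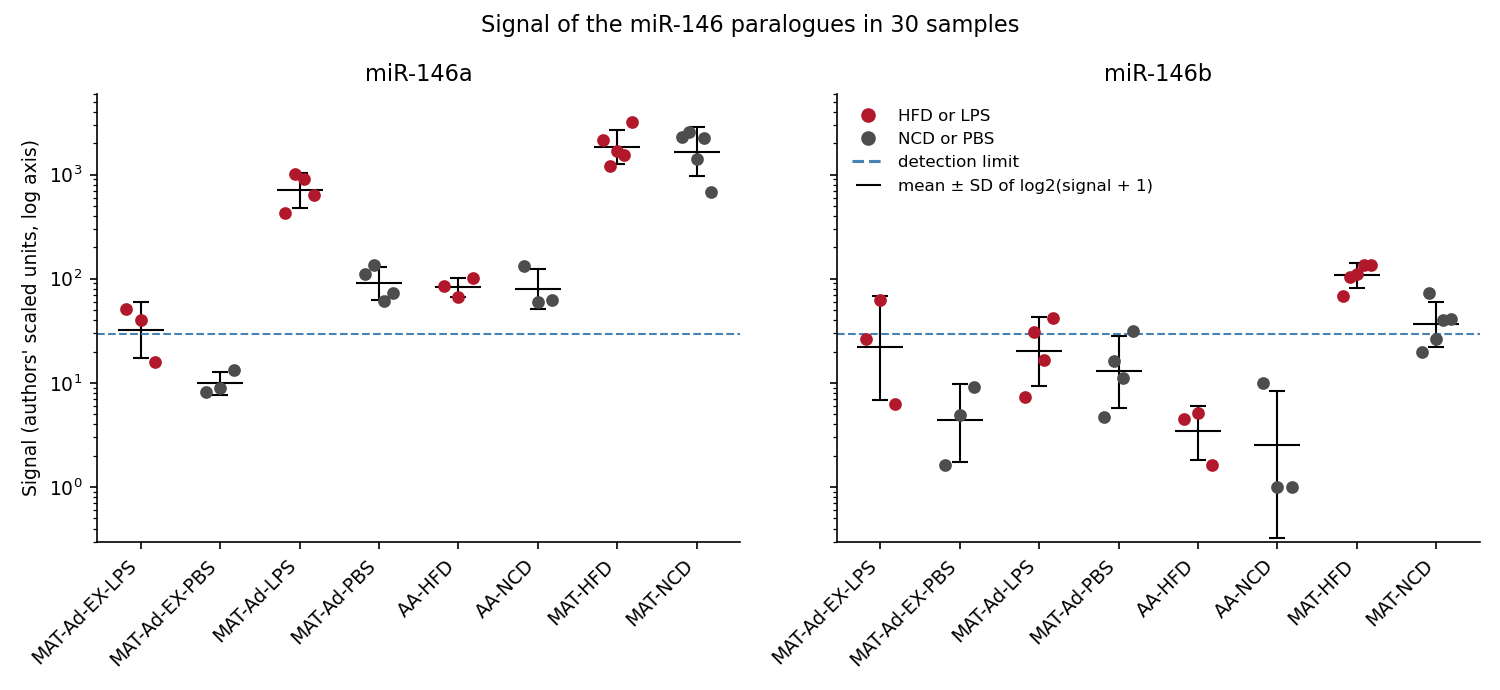
Deposited signal (log axis) of miR-146a (left) and miR-146b (right) in each of the 30 samples, by group, with the mean and SD of log2(signal + 1) as bars and the detection limit of 29.8 as a dashed line. miR-146a spans 8.1 to 3192.08 across the samples, while miR-146b exceeds 100 only in fat of HFD mice.

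miR-146a was one of the more abundant miRNAs of fat and of LPS-treated adipocytes, and miR-146b was scarce everywhere. By mean signal, miR-146a ordered as HFD fat (1941 ± 775, SD, n = 5), chow fat (1827 ± 765, n = 5), LPS adipocytes (743 ± 260, n = 4), PBS adipocytes (95.4 ± 34.2, n = 4), chow aorta (84.9 ± 41.0, n = 3), HFD aorta (84.2 ± 17.4, n = 3), LPS exosomes (36.1 ± 18.3, n = 3) and PBS exosomes (10.1 ± 2.78, n = 3). Neighbours that did not differ beyond the larger SD were HFD and chow fat, PBS adipocytes and chow aorta, and chow and HFD aorta. Among the 566 miRNAs miR-146a ranked 29 to 55 in HFD fat, 31 to 52 in chow fat, 21 to 27 in LPS adipocytes and 52 to 72 in PBS adipocytes.

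The order for miR-146b was HFD fat (111 ± 27.9), chow fat (40.3 ± 20.9), LPS exosomes (31.7 ± 28.6), LPS adipocytes (24.3 ± 15.4), PBS adipocytes (16 ± 11.6), PBS exosomes (5.24 ± 3.82), chow aorta (3.96 ± 5.13) and HFD aorta (3.74 ± 1.85). On the log2 scale, HFD against chow fat and PBS adipocytes against PBS exosomes were the neighbouring pairs that differed by more than the larger SD. miR-146b was over the limit in 5 of 5 HFD and 3 of 5 chow fat samples, 2 of 4 LPS and 1 of 4 PBS adipocyte samples, 1 of 3 LPS and 0 of 3 PBS exosome samples, and 0 of 6 aorta samples. Values under the limit are given below as deposited and are not measurements of a level.

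The first question was what LPS did to the paralogues in cultured adipocytes. miR-146a rose 7.69-fold, and it had the smallest p of the 98 miRNAs tested. miR-146b was over the limit in 2 of 4 LPS and 1 of 4 PBS samples, too few to pass the filter on low values, so it was left out of this fit. The signal of miR-146a was 426.5, 1001.55, 903.43 and 640.11 in LPS adipocytes, against 111.03, 135.66, 61.49 and 73.36 in PBS adipocytes. Every LPS sample lay far above every PBS sample, with no overlap. The log2 fold change was 2.94 (95% confidence interval 2.14 to 3.75, limma adjusted p = 0.0010). This was 1 of 2 calls among the 98 miRNAs tested, a background of 2.04%, and the share of tested miRNAs that were higher after LPS without overlap was 4.08%. Over all tested miRNAs the same-numbered cultures varied together, and with the replicate number as a block 8 miRNAs were called in place of 2. miR-146a stayed called, at a limma adjusted p of 1.2e-19. That p leans on a spread that limma pools over miRNAs and does not measure the scatter of miR-146a. In miR-146a itself replicate 2 was highest under both treatments, but replicate 1 was lowest after LPS and replicate 3 after PBS.

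The other call was miR-221, a regulator of cell proliferation that is also NF-kB responsive, at 53.67 to 180.76 after LPS and 1.04 to 11.07 after PBS (log2 fold change 3.90, limma adjusted p = 0.0034). Across the list of 17 LPS- and NF-kB-responsive miRNAs, chosen with earlier results of these data known, 8 were tested and these 2 were called higher, with a median log2 fold change of 0.31 beside 0.29 over all tested. miR-21, a widely expressed miRNA raised in many inflammatory states, had a log2 change of 0.82 (adjusted p = 0.37), and miR-132, another NF-kB- and CREB-linked miRNA, had 0.34 (adjusted p = 0.64). miR-155, the macrophage LPS-response miRNA most often named beside miR-146a, was listed at or near the floor in all 30 samples (1.0 to 2.4), as was miR-147. The change of miR-146a in these cultures was therefore shared by miR-221 alone among the listed miRNAs called.

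Leukocyte miRNAs were examined because immune cells in a stromal culture could carry miR-146a. The most leukocyte-restricted of them, miR-142-3p, was at 1.0 to 1.42 in LPS adipocytes and 1.0 to 1.56 in PBS adipocytes, and the lymphocyte miRNA miR-150 at 1.0 to 3.55 and 1.09 to 5.35 under the same treatments. All of these lay below the limit. miR-223, a myeloid miRNA, was over the limit in 1 of 4 LPS samples (31.94) and in 0 of 4 PBS samples. The summed list of 7 was 296.87 to 591.0 after LPS and 330.38 to 434.3 after PBS. That sum came almost wholly from miR-342-3p and from miR-142-5p, whose probe read 158.16 to 901.92 in every kind of sample, exosomes included.

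miR-146b after LPS was 7.36, 30.74, 16.65 and 42.34, against 4.69, 16.33, 11.06 and 31.83 after PBS. The ranges overlapped, and miR-146b was higher after LPS in all 4 same-numbered pairs, which vary together. The mean difference was 0.59 on the log2 scale (exact two-sided sign-flip p = 0.125, the smallest that 4 pairs allow), and with sub-limit values raised to the limit the fold was 1.08. In a fit without the filter on low values the limma adjusted p was 0.89. Of the 8 values, 5 lay below the limit, so these samples do not settle whether miR-146b changed.

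**Figure D2:**
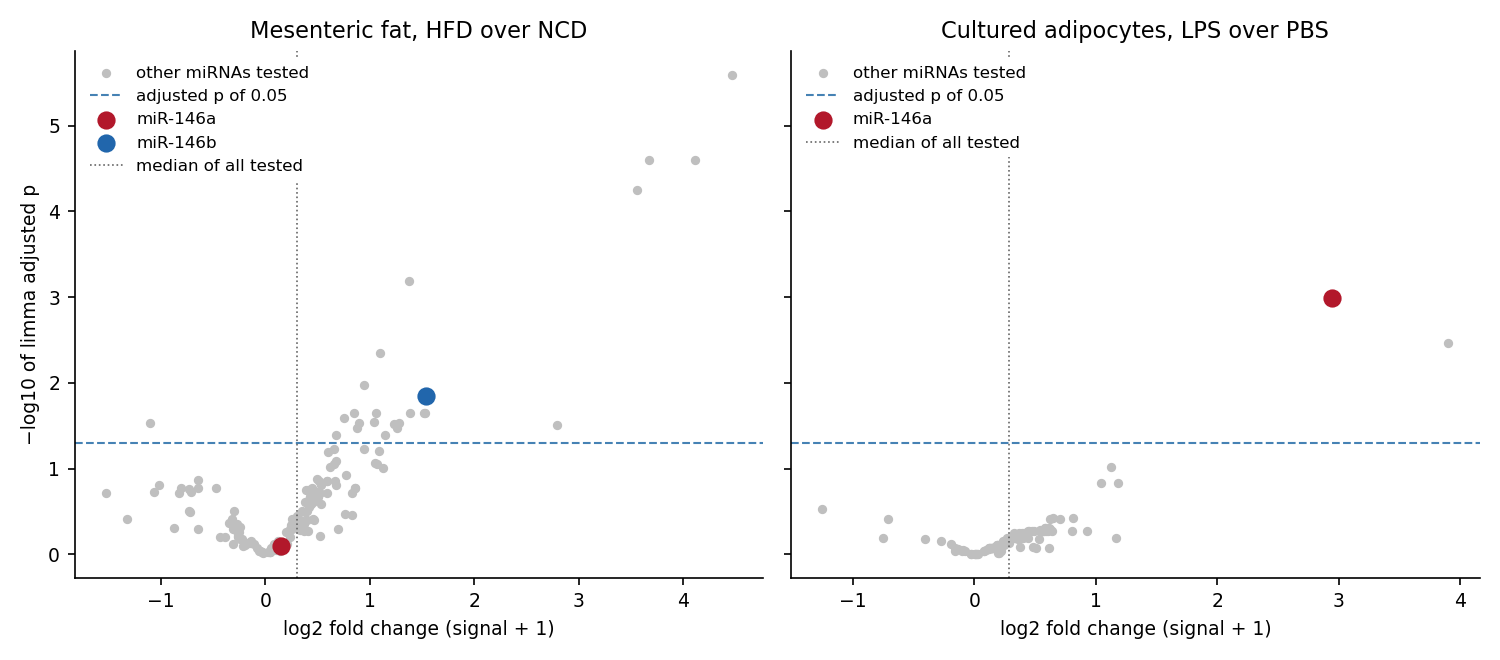
log2 fold change (horizontal) and −log10 of the limma adjusted p (vertical) of each tested miRNA for HFD over chow in fat (left) and LPS over PBS in cultured adipocytes (right), with the median of all tested as a dotted line and an adjusted p of 0.05 as a dashed line. miR-146b passes the threshold at 1.53 in fat, miR-146a at 2.94 in adipocytes, and miR-146b was not tested in adipocytes.

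The second question was the effect of the high-fat diet on mesenteric fat. miR-146b was higher in HFD fat, 2.61-fold with sub-limit values raised to the limit, while the far more abundant miR-146a was not called. The signal of miR-146b was 68.22, 103.67, 110.08, 135.75 and 135.8 in HFD fat, against 19.79, 73.75, 26.16, 40.34 and 41.25 in chow fat. All HFD samples were above 4 of the 5 chow samples, and the ranges overlapped through HFD replicate 1 and chow replicate 2. On the deposited values the log2 fold change was 1.53 (95% confidence interval 0.80 to 2.27, limma adjusted p = 0.014). In this comparison 15.3% of 157 tested miRNAs were called and 14.6% were called higher, so a call was common, and the median log2 fold change over all tested was 0.31. The call was lost without chow replicate 3 (adjusted p = 0.054), held in the other 9 single-sample omissions, and was also lost with no filter on low values (limma adjusted p = 0.058) and with all 30 samples in 1 fit (0.15).

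miR-146a was 2123.91, 1196.19, 1666.39, 1526.14 and 3192.08 in HFD fat, against 2273.98, 2533.95, 1417.76, 2227.09 and 680.96 in chow fat. Its values covered nearly the same range on both diets. The log2 fold change was 0.15 (−0.69 to 0.99, limma adjusted p = 0.80), an interval that includes both an increase and a decrease of over 1.5-fold. Its sign turned to −0.07 with each sample centred on its median, to −0.20 after quantile normalization and to −0.15 after scaling on the 100 most abundant miRNAs.

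A share of summed miRNA signal does not depend on the authors' scaling factor. miR-146b took 0.0286% ± 0.00776 of the signal in HFD fat and 0.0126% ± 0.00540 in chow fat (SD, n = 5 each, exact two-sided permutation p = 0.016). miR-146a took 0.529% ± 0.276 in HFD fat and 0.592% ± 0.243 in chow fat (exact permutation p = 0.72). On this scale too, the paralogue that passed the test was miR-146b, although miR-146a carried by far the larger share.

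Of the 17 LPS- and NF-kB-responsive miRNAs, 12 were tested in fat and 6 were called higher after HFD, with none lower. Over all 157 tested, 14.6% were called higher. The median log2 fold change of the list was 0.68 beside 0.31 over all tested. miR-222 and miR-221, which are transcribed from a common precursor, had the largest changes of the list at 4.47 and 3.67. miR-222 stood at 37.5 to 96.67 in HFD fat and 1.0 to 3.64 in chow fat, and miR-221 at 211.89 to 430.23 and 14.93 to 53.93 under the same diets. miR-21 rose by 1.04 on the log2 scale, miR-132 by 0.88 and miR-223, which marks myeloid cells, by 0.75. miR-146b was thus called with several other listed miRNAs in fat, and miR-146a was not among them.

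The paralogues were next set against each other within each sample, as the log2 ratio of miR-146b to miR-146a, which any scaling factor leaves nearly untouched. In fat the ratio was −4.94, −3.52, −3.91, −3.48 and −4.54 after HFD, against −6.77, −5.08, −5.71, −5.75 and −4.01 on chow. The HFD samples were mostly higher, and the ranges overlapped. The mean was −4.08 ± 0.64 after HFD and −5.47 ± 1.01 on chow (SD, n = 5 each), a difference of 1.39 or 2.62-fold, with an exact two-sided permutation p of 0.032. Adjusted over the 2 ratio comparisons run, p was 0.057 (exact permutation test), so the difference does not pass after adjustment.

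In cultured adipocytes the ratio went the other way, although miR-146b was below the limit in 5 of 8 samples there and the comparison was added after its values were seen. The ratio was −5.68, −4.98, −5.68 and −3.89 after LPS, against −4.30, −2.98, −2.37 and −1.18 after PBS. The LPS ratios were lower in all 4 same-numbered pairs, while the ranges of the 2 treatments overlapped. The means were −5.06 ± 0.85 and −2.71 ± 1.30 (SD, n = 4 each), a difference of −2.35 (exact two-sided permutation p = 0.057, also 0.057 adjusted). Over the 4 pairs the exact sign-flip p was 0.125, the smallest that 4 pairs allow. With sub-limit values raised to the limit the difference was −2.83 (exact permutation p = 0.029, the smallest that 4 against 4 allow). In that setting 5 of the 8 miR-146b values are the same constant, so the difference mostly repeats the rise of miR-146a. It cannot show how miR-146b changed.

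**Figure D3:**
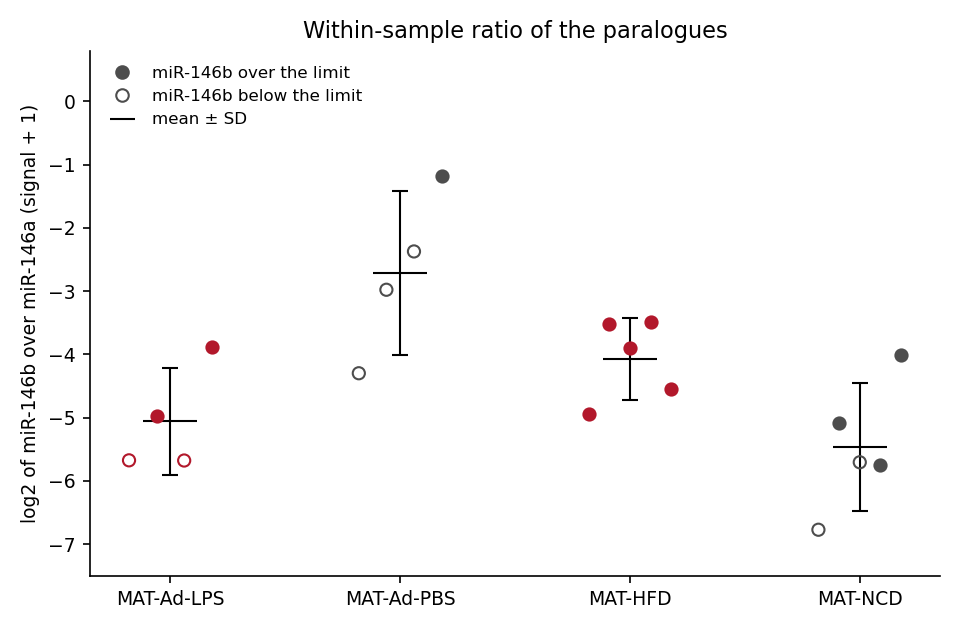
log2 ratio of miR-146b to miR-146a signal in each cultured adipocyte and fat sample, with the mean and SD of each group as bars and open circles where miR-146b was below the detection limit. The mean is −5.06 after LPS and −2.71 after PBS in adipocytes, and −4.08 after HFD and −5.47 on chow in fat.

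For each paralogue the LPS effect in adipocytes was set directly against the diet effect in fat, as the difference of both effects. For miR-146a this difference was 2.80 on the log2 scale (1.59 to 4.00, limma adjusted p = 0.0038), in a fit where 2.89% of 173 miRNAs were called in that direction. For miR-146b it was −0.94 (−2.48 to 0.60, limma adjusted p = 0.57), which does not pass. With sub-limit values raised to the limit it did pass (−1.27, limma adjusted p = 0.039). That setting leaves an LPS effect of 1.08-fold beside a diet effect of 2.61-fold, so it mostly repeats the diet effect in fat. The LPS effect on miR-146a thus exceeded its diet effect, whereas the corresponding difference for miR-146b was within its error.

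In the 10 fat samples miR-146a varied with the summed leukocyte miRNAs. Leukocyte miRNAs are given as a list of 7, chosen with earlier results of these data known, and the relations below were picked after the values were seen. The summed list was 9720 to 32043 in HFD fat and 5473 to 29424 in chow fat. The chow sample with the lowest sum, replicate 5 at 5473, also had the lowest miR-146a, and chow replicate 2 with the highest chow sum had the highest chow miR-146a. On the log2 scale, miR-146a and the sum correlated with Pearson r = 0.94 (permutation p = 0.00036, adjusted 0.0022 over 6 relations) and Spearman rho = 0.81 (permutation p = 0.0072, adjusted 0.021). Without the 2 samples farthest from the median sum r was 0.80, and with each sample's deviation from its diet mean it was 0.94.

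The relation was also seen with miR-142-3p and miR-150, the single leukocyte miRNAs on which it was run. For miR-223, also on the list, it was not run. The highest miR-223 (2920.86, HFD replicate 5) came with the highest miR-146a, 3192.08. The lowest miR-223 (1195.72, chow replicate 4) came with a miR-146a of 2227.09, far from the lowest. Against miR-142-3p, r was 0.83 for miR-146a (permutation p = 0.0038, adjusted 0.011) and rho 0.79 (permutation p = 0.0088, adjusted 0.021), with r = 0.75 without the 2 farthest samples. Against miR-150 r was 0.77 (permutation p = 0.0074, adjusted 0.015) and rho 0.78 (permutation p = 0.010, adjusted 0.021), with r = 0.63 without the 2 farthest. These points share their library and scaling factor, and with shares of signal in place of signal r against the sum was 0.96.

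miR-146b had no such relation with the sum, miR-142-3p or miR-150 in the same samples. Its r was −0.04 against the summed list (permutation p = 0.93), −0.21 against miR-142-3p (permutation p = 0.56) and −0.33 against miR-150 (permutation p = 0.34). Its rho was −0.04, −0.21 and −0.21 in the same order (permutation p = 0.92, 0.56 and 0.56), and r without the 2 farthest samples was −0.16, −0.38 and −0.42. The difference between the correlations of miR-146a and miR-146b was not tested, nor was the relation of either to miR-223. That myeloid miRNA was 1945.9 to 2920.86 in HFD fat and 1195.72 to 1595.34 in chow fat, so it was higher on HFD, as miR-146b was. Of the 5 leukocyte miRNAs tested between diets, 2 were called higher after HFD, miR-223 and miR-342-3p, beside a background of 14.6% called higher. The other 3 had log2 fold changes of −0.87 (miR-142-3p), −0.65 (miR-150) and −0.11 (miR-142-5p), none called, and the median of the 5 was −0.11 beside 0.31 over all tested. Their part in the miR-146b result was not tested.

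**Figure D4:**
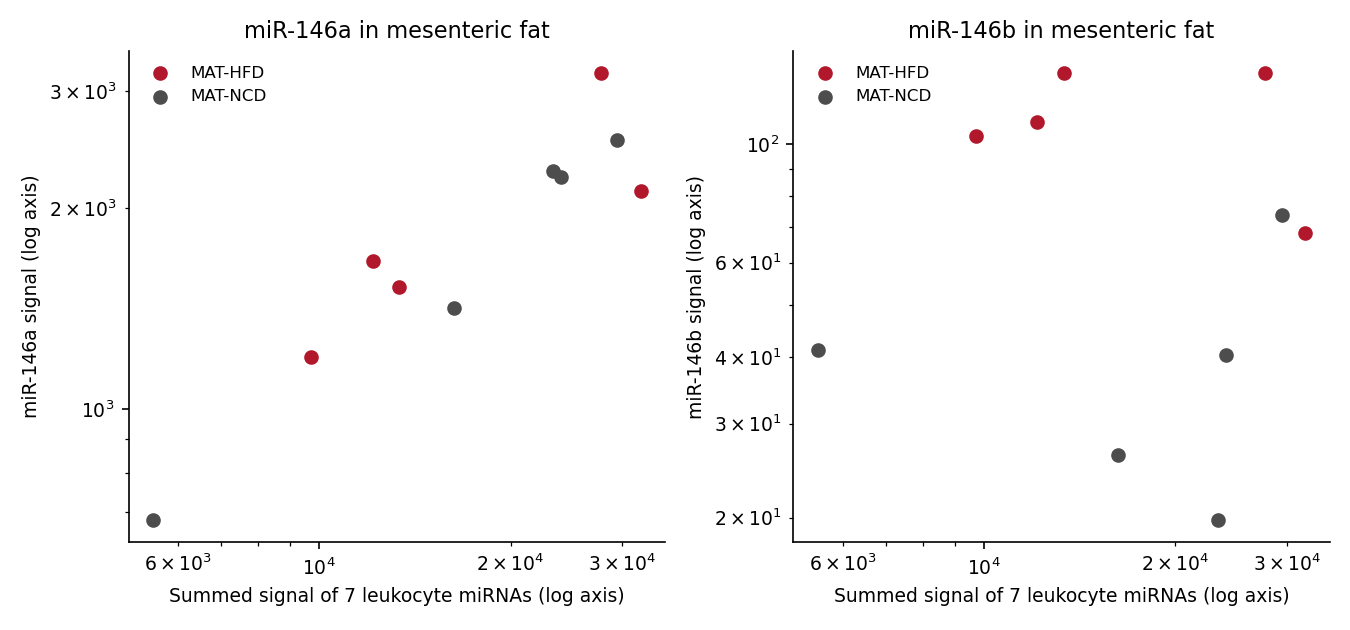
Signal of miR-146a (left) and miR-146b (right) against the summed signal of 7 leukocyte miRNAs in the 10 fat samples, both axes logarithmic, HFD in red and chow in grey. miR-146a climbs with the sum on both diets (r = 0.94), while miR-146b does not (r = −0.04) and its HFD samples mostly lie above the chow samples at any sum.

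The miRNAs whose pattern was most like each paralogue were listed by Pearson r as a description. Within fat, over deviations of the 10 samples from their diet means and among 173 miRNAs, miR-146a was closest to miR-342-3p (0.94), miR-2132 (0.93), miR-142-3p (0.91), miR-466d-3p (0.90) and miR-467f (0.88). miR-146b was closest to miR-221 (0.95), miR-497 (0.86), miR-195 (0.84), miR-107 (0.81) and miR-411 (0.81). The paralogues themselves correlated at 0.08, which put miR-146b at rank 64 of 173 for miR-146a.

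In the 8 cultured adipocyte samples, over deviations from the treatment means, miR-146a was closest to miR-130a (0.95), miR-433 (0.94), miR-369-3p (0.88), miR-25 (0.88) and miR-191 (0.84), and miR-146b to the joint probe of miR-106a and miR-17 (0.93), miR-376b (0.91), miR-532-5p (0.90), miR-342-3p (0.90) and miR-136 (0.86). The paralogues correlated at 0.17 there. No miRNA was among the 5 closest to miR-146a both in fat and in culture.

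Over the 8 group means, where the kind of sample dominates, miR-146a was closest to miR-93, miR-350, miR-106b, miR-127 and miR-130b (0.95 to 0.96), and miR-146b to miR-423-5p (0.91), miR-377 (0.91), miR-2132, miR-410 and miR-221 (0.88 to 0.89). The paralogues correlated at 0.74 over these 8 points, at rank 111 of 184 for miR-146a and rank 43 for miR-146b. These lists share libraries and depth with the paralogues and carry no test.

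In abdominal aorta the diet comparison showed no call for either paralogue. miR-146a was 84.78, 66.58 and 101.35 in HFD aorta, against 132.19, 59.54 and 63.01 in chow aorta, and the ranges overlapped. The log2 fold change was 0.07 (−0.82 to 0.95, limma adjusted p = 0.96), and without chow replicate 1, the sample with the largest scaling factor, it was 0.43 (adjusted p = 0.31). limma called 0% of 99 miRNAs in this comparison, with 11 at an unadjusted p under 0.05. miR-146b was 4.46, 5.12 and 1.64 in HFD aorta, against 9.89, 1 and 1 in chow aorta, all below the limit, and was not tested.

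Aorta gave lower signal of both paralogues than fat, by a wide margin for miR-146a. miR-146a was 21.8-fold lower in HFD aorta than in HFD fat (log2 fold change −4.45, limma adjusted p = 2.8e-07) and 20.6-fold lower in chow aorta than in chow fat (−4.37, adjusted p = 4.4e-07). No aorta sample reached the lowest fat sample. miR-146b was at least 3.52-fold lower in HFD aorta than in HFD fat and at least 1.22-fold lower in chow aorta than in chow fat. The fit on deposited values called both (limma adjusted p = 2.1e-06 on HFD and 4.6e-05 on chow). Every aorta value of miR-146b was below the limit, and it passed the filter through fat samples alone. These p-values thus rest on aorta values that are not measurements. On chow the call was lost with sub-limit values raised to the limit (adjusted p = 0.19).

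Lower signal in aorta was the rule. In the HFD comparison 76% of 175 miRNAs were called lower and in the chow comparison 71.4%, with medians of −2.02 and −2.10 over all tested. miR-146a lay below these medians, and its share of the signal was 0.0254% to 0.0383% in HFD aorta against 0.241% to 0.930% in HFD fat. Leukocyte miRNAs were lower as well, with 4 of the 5 tested called in each comparison, and their sum was 559.03 to 1099.18 in HFD aorta and 582.7 to 1440.26 in chow aorta. Their part in the difference was not tested. The diet effect in aorta minus that in fat was −0.08 for miR-146a (limma adjusted p = 0.98) and −1.20 for miR-146b (−2.83 to 0.44, adjusted p = 0.78), in a fit that called 1.71% of 175, so a different diet response of the 2 tissues was not shown.

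Exosomes gave readings of the paralogues at or near the limit. miR-146a was 51.63, 40.61 and 15.91 in LPS exosomes, against 8.1, 8.95 and 13.28 in PBS exosomes. The groups did not overlap, but only 2 LPS samples were over the limit. The difference was at least 1.08-fold, the deposited values differed by 1.61 on the log2 scale, and the exact two-sided permutation p was 0.1, the smallest that 3 against 3 allow. Of the 78 miRNAs over the limit in at least 1 exosome sample, 50% were higher after LPS without overlap, so this separation was common. The total signal was 5753 to 33349 in LPS exosomes and 1796 to 2861 in PBS exosomes, and its part in the difference was not tested.

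The filter left miR-146a out of the exosome fit, in which limma called 30.8% of 26 miRNAs higher after LPS, miR-21 among them. Some single-sample omissions lowered the filter and let miR-146a in, each time only through LPS samples, and 1 of 4 such runs called it. That run left out LPS replicate 3, its lowest LPS value (log2 fold change 2.10, limma adjusted p = 0.015). The call is therefore no support for a rise. Without PBS replicate 1, the sample with the weak ligation control, the change was 1.48 (adjusted p = 0.20). The direction depended on the scale: over all 6 samples the difference was −2.05 with median centring, −0.50 after quantile normalization and −0.40 after scaling on the 100 most abundant miRNAs, and the share of signal averaged 0.255% in LPS exosomes and 0.411% in PBS exosomes. miR-146b was 26.18, 62.66 and 6.34 in LPS exosomes, against 1.62, 4.88 and 9.23 in PBS exosomes. The groups overlapped, 1 sample was over the limit, and the exact two-sided permutation p was 0.2.

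Compared with the cells that released them, exosomes had less miR-146a signal. After LPS the exosomes were 17.3-fold lower with sub-limit values raised to the limit, and after PBS at least 2.98-fold lower. The limma fits used deposited values. They gave log2 fold changes of −4.40 after LPS (limma adjusted p = 3.0e-06) and −3.08 after PBS (adjusted p = 5.2e-05). The PBS comparison rests on exosome values below the limit. Without PBS exosome replicate 1 it gave −2.95 (adjusted p = 4.2e-04). In the same fits 70.2% and 78.9% of 114 miRNAs were called lower, with medians of −3.44 and −4.71, so after LPS miR-146a lay below the median and after PBS above it. miR-146b differed by 0.14 after LPS (adjusted p = 0.91) and by −1.38 after PBS (limma adjusted p = 0.14), and neither was called. Both were called higher in exosomes with median centring, quantile normalization and scaling on the 100 most abundant miRNAs, at 2.97, 1.92 and 3.16 after LPS and at 3.97, 2.01 and 3.50 after PBS. miR-146b was over the limit in only 1 LPS exosome sample and in 0 PBS ones. PBS exosomes had 7 to 14 miRNAs over the limit, so these scalings rest there mostly on sub-limit values. Such calls do not show a higher level in exosomes.

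As a share of each sample's miRNA signal, miR-146a pointed in opposite directions under the 2 treatments. It took 0.366%, 0.122% and 0.277% in LPS exosomes, against 0.534%, 0.701%, 0.809% and 0.637% in LPS adipocytes. It took 0.451%, 0.313% and 0.469% in PBS exosomes, against 0.132%, 0.139%, 0.0877% and 0.0718% in PBS adipocytes. Exosome shares were all lower than those of cells after LPS and all higher after PBS, the second resting on exosome values below the limit. Each difference had the smallest exact two-sided permutation p that 3 against 4 allow, 0.057, or 0.095 adjusted over the 5 comparisons of miR-146a shares. In the cells the share was 0.670% ± 0.115 after LPS and 0.107% ± 0.0328 after PBS (SD, n = 4 each, exact permutation p = 0.029, the smallest possible, adjusted 0.095).

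**Figure D5:**
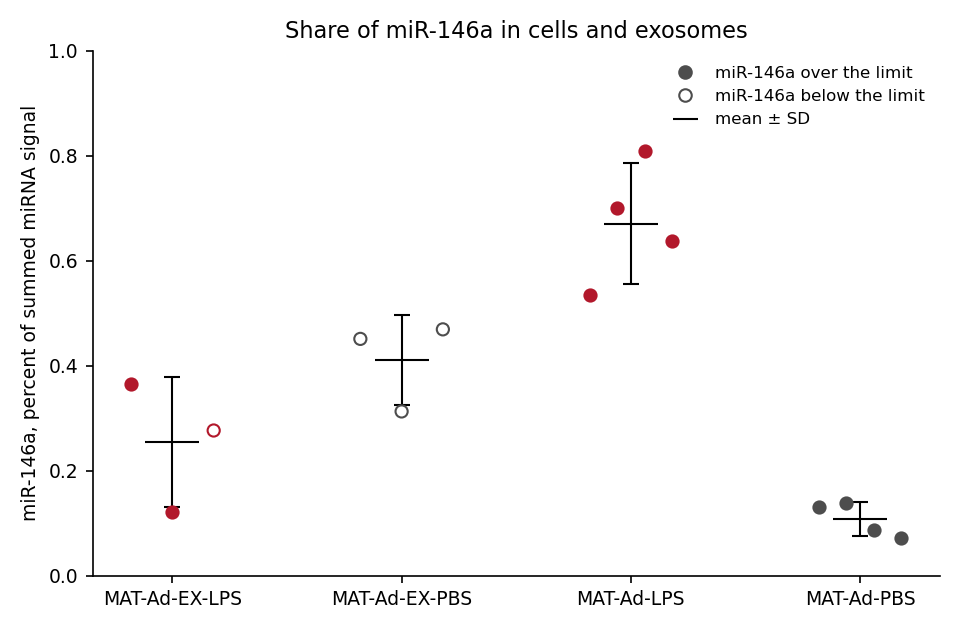
miR-146a as percent of the summed miRNA signal in each exosome and adipocyte sample, with the mean and SD of each group as bars and open circles for samples below the detection limit. LPS exosomes average 0.255% against 0.670% in LPS adipocytes, and PBS exosomes 0.411% against 0.107% in PBS adipocytes.

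After PBS the sign of miR-146a also turned on the signal scale. miR-146a was higher in PBS exosomes than in PBS adipocytes by 2.28 with median centring, 1.28 after quantile normalization and 1.81 after scaling on the 100 most abundant miRNAs, each called the other way (limma adjusted p = 9.6e-04, 0.018 and 0.0038). All 3 PBS exosome values of miR-146a lay below the limit, in samples with 7 to 14 miRNAs over it. These calls therefore do not show a level. The LPS effect in exosomes minus that in cells was −1.33 for miR-146a (−2.83 to 0.17, limma adjusted p = 0.24) and 1.52 for miR-146b (adjusted p = 0.43), in a fit that called 14.9% of 114. For miR-146a it passed under 5 alternatives, at −1.82 to −3.84.

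Cultured adipocytes under PBS were set against chow fat to place the culture beside the tissue. miR-146a was 18-fold lower in the cultures (log2 fold change −4.17, limma adjusted p = 3.4e-08), and 75.7% of 173 miRNAs were called lower with a median of −2.55. The leukocyte sum was 330.38 to 434.3 in PBS adipocytes and 5473 to 29424 in chow fat, and its part in the difference was not tested. LPS adipocytes, at 426.5 to 1001.55, overlapped the lowest chow fat sample at 680.96. miR-146b was lower by −1.41 on the log2 scale (adjusted p = 0.018), 1.33-fold with sub-limit values raised to the limit, where the call was lost (limma adjusted p = 0.15). Its sign turned under median centring (0.76), quantile normalization (0.49) and scaling on the 100 most abundant miRNAs (1.16).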

How the data were processed

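The deposited table holds signal values. Their low values show that the authors had subtracted background, set a floor of 1 and multiplied the miRNAs of each sample by 1 factor (0.6025 to 2.40, with 100% of low values under 60 on whole steps of it within 0.1), while the negative controls were not multiplied. Which tool and background rule were used, and what the factor rests on, is not given in the sources used here. RNA carried a fluorescent barcode and a biotin moiety, per the labels. The deposited values are background-subtracted, so no count test was used. The precision of a value is limited by its signal above background.

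Differences were tested with limma 3.58.1 in R 4.3.3 (lmFit, eBayes) on log2(signal + 1), which understates the change of low miRNAs, with Benjamini-Hochberg adjustment over all miRNAs tested. A call is an adjusted p below 0.05. A miRNA was tested where it exceeded the limit of 29.8 (mean plus 2 SD of 240 negative control values) in at least as many samples as the smallest group holds. Diet and LPS comparisons were fitted on their own 2 groups, the others, culture against fat included, on 4 groups. Where 1 group lay wholly below the limit, folds are lower bounds with its values set to the limit. Ratios, shares and exosome members used exact permutation tests and correlations 100000 permutations (scipy 1.17.1). Procedures were tested on simulated data.

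The members and lists were chosen with earlier results of these data known. Named miRNAs were the 2 members, up to 4 called members of each list per direction and treatment comparison, the leukocyte list, and the 5 miRNAs most correlated with each member. miR-155, miR-147, and the uncalled changes of miR-21 and miR-132 were named outside this rule after their values were seen. Same-numbered samples deviated together in cultured adipocytes (correlations 0.50 to 0.88 in all 4 pairs), which pairs them, and not in every pair of the other comparisons. Alternatives were another pseudocount, no filter, a doubled limit, other scalings, the factor undone, values set to the limit, a trended prior, all 30 samples in 1 fit, the replicate block and leaving out each sample. The test of the ratio in cultured adipocytes, the exact tests of exosomes, the sign-flip test of miR-146b in adipocytes and the correlations with leukocyte miRNAs were added after seeing the data.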

Additional observations from a re-analysis of the deposited data

Results flagged for a closer look

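In 2 of 20 outlier tests 1 sample stood apart from the others of its group. The tests covered the paralogues, their log2 ratio, and the leukocyte and red blood cell sums, each in the groups of 4 or 5 samples. Chance alone flags about 1 in 20 such tests, and these share samples. The summed leukocyte list was 434.3 in PBS adipocyte replicate 4, the highest of that group. The summed red blood cell miRNAs, miR-451 and miR-486, were 59617.45 in HFD fat replicate 2, against at most 7155 in the other HFD fat samples. That sample's miR-146a (1196.19) was the lowest of its group, and its miR-146b (103.67) lay within the range of the others.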

How the results depend on the processing

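The rise of miR-146a in LPS adipocytes and its lower level in aorta and in culture than in fat kept their direction and call in every alternative run, 11 or 12 per comparison, and in each single-sample omission (2.76 to 3.18 for LPS). The replicate block ended no limma call of either paralogue. miR-146b in HFD fat kept its direction throughout, and its call was lost at 1.53 with no filter (adjusted p = 0.058) and with all 30 samples in 1 fit (0.15). Leaving out single samples gave 1.32 to 1.78. Undetected values, exosome depth and the unstated scaling limit the rest. For each value below the cause was not tested. Ratio and share results are judged on unadjusted exact p.

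With median centring, quantile normalization and top-100 scaling in this order, the diet effect on miR-146a was −0.072, −0.20 and −0.15 in fat and −0.13, −0.15 and −0.18 in aorta. The LPS effect in exosomes was −2.05, −0.50 and −0.40 for miR-146a and −1.56, 0.14 and 0.10 for miR-146b, and with values set to the limit 0.40 and 0.35. Exosomes minus cells after LPS was 2.97, 1.92 and 3.16 for miR-146b, each called, and −0.58 with positive control scaling. After PBS it was 2.28, 1.28 and 1.81 for miR-146a and 3.97, 2.01 and 3.50 for miR-146b. The LPS effect in exosomes minus that in cells was −3.84, −2.83 and −3.19 for miR-146a, as well as −1.82 with a pseudocount of 16 and −2.54 with values set to the limit, all called, and −1.0, −0.088 and −0.34 for miR-146b. Culture minus fat was 0.76, 0.49 and 1.16 for miR-146b, −1.41 with no filter (adjusted p = 0.061) and −0.41 with values set to the limit. The diet effect in aorta minus that in fat was 0.12 with centring and 0.14 with quantile normalization for miR-146a, and 0.39 with quantile normalization for miR-146b. With values set to the limit, chow aorta minus chow fat was −0.43 and the LPS effect in adipocytes minus the diet effect in fat −1.27 for miR-146b. The ratio in fat was 1.07 with a pseudocount of 16 (exact permutation p = 0.056) and 1.39 with the replicate block (exact sign-flip p = 0.125). In adipocytes it was −2.43 with a pseudocount of 16 and −2.83 with values set to the limit, both past the threshold. The value at the limit mostly repeats the rise of miR-146a.

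Leaving out single samples gave −0.17 to 0.30 for miR-146a in the fat diet comparison and −0.14 to 0.43 in the aorta one, 1.28 to 2.10 in exosomes after LPS, −0.28 to 0.29 for the aorta minus fat diet effect, −0.59 to 0.97 for miR-146b in exosomes minus cells after LPS, and −1.82 to −0.98 for miR-146b in culture minus fat, where the call was lost without chow fat replicate 2 or PBS adipocyte replicate 1. The ratio in fat ran from 1.06 to 1.75, and the miR-146a share difference from −0.164 to 0.00855 percentage points in fat and from 0.517 to 0.608 in LPS adipocytes, where 3 against 4 cannot pass.

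The number of miRNAs called in fat, 24, was 13 with no filter, 52 with the factor undone, 10 with all 30 samples and 8 with the replicate block, and 8 to 48 without single samples. In LPS adipocytes the 2 calls were 1 with a doubled limit, 5 with centring, 5 with positive control scaling and 8 with the block, and 2 to 4 without single samples. The 8 calls in exosomes were 0 with no filter, centring or the block, 5 with a doubled limit, 1 with quantile and 3 with top-100 scaling, 17 with all 30 samples, and 0 to 23 without single samples. The 0 calls in aorta stayed at 0 or 1 without single samples. The 3 calls for aorta minus fat diet effects were 5 with no filter and 3 to 7 without single samples. The 83 calls for exosomes minus cells after LPS were 54 with quantile and 55 with top-100 scaling. The 17 calls for exosome minus cell LPS effects were 10 with a pseudocount of 16, 5 with no filter, 35 with centring, 9 with the factor undone, 6 with values set to the limit, 32 with all 30 samples and 9 to 43 without single samples. The 11 calls for LPS minus diet effects were 18 with quantile normalization. With a doubled limit miR-146b was left untested in the comparisons of exosomes with cells.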
